A study of Homo sapiens with 4 samples.

Results

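Extracellular matrix genes were examined in GALNT3 knockdown clones of A2780s, a human ovarian adenocarcinoma cell line. The members are 50 genes that were listed by name: 6 fibrillar collagens, 5 basement membrane collagens, 5 other collagens, 9 laminins, 4 nidogen, perlecan and agrin genes, 6 fibronectin, elastic fibre and fibulin genes, 5 proteoglycan and link protein genes and 10 matricellular and adhesion genes. Probes were assigned to them by the accession that the array files give, whatever their values. The list itself was chosen with earlier results of these data known. Several of its genes, such as LAMB1, POSTN and HAPLN1, are among those the paper reports as changed. The array files named 17240 genes in this way. Of the 50 listed, 48 had a probe, with 79 of the 41000 probes of the array, and 78 of these probes passed the filter on dim signals, as did 39151 probes in all. COL1A1 and EFEMP1 had no probe that could be named here.

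GALNT3 encodes an enzyme that begins the O-linked glycosylation of proteins in the Golgi. Clones sh-G1 and sh-G2 carry the same GALNT3 shRNA in the pSilencer puro vector and were selected with puromycin, and the ctrl clone was mock-transfected with that vector and selected alongside. Each of the 3 is a single clone, so the knockdown and any peculiarity of the single ctrl clone cannot be told apart. Total RNA of each knockdown clone was hybridised against that of the ctrl clone on 2 two-colour Agilent arrays with the dyes exchanged (knockdown in Cy5 in replicate 1 and in Cy3 in replicate 2), and these arrays were counted as 1 replicate because the sources used here do not state whether they hold separate extracts. The labels write the line of the ctrl clone as A2780s on some arrays and as A27803 on others, and it was taken to be the same clone throughout.

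The GALNT3 probe gave log2 ratios of knockdown over ctrl of -0.09 and 0.08 in sh-G1 and of 0.12 and -0.14 in sh-G2. It cleared the background on 2 of 4 arrays in the knockdown channel and on all 4 in the ctrl channel. Only 0.409% of the probes kept were dimmer. A fall of GALNT3 mRNA was thus not visible on these arrays, but a probe this close to background cannot show whether there was one. The paper reports that both clones had less GALNT3 than ctrl, from Western blots and a semi-quantitative PCR. Below, sh-G1 and sh-G2 stand for the clones labelled as knockdown. Each array read 43376 spots and all 4 lay on 1 slide. The share of spots well above background was 88.1% to 97.0% in the knockdown channel, lowest in sh-G2 replicate 2, and 95.9% to 97.6% in the ctrl channel. Over all probes, arrays of the same dye orientation were more alike (r = 0.61 and 0.73, across probes, which are not replicates) than the dye-swapped arrays of a clone (r = 0.32 for the pair of sh-G1 and 0.19 for that of sh-G2).

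The extracellular matrix is built of collagen trimers, either the fibrils of connective tissue or the network of the basement membrane. In the basement membrane, heterotrimers of an alpha, a beta and a gamma laminin chain form a second network, which nidogens and the proteoglycan perlecan join to type IV collagen. Small leucine-rich proteoglycans such as decorin and lumican coat collagen fibrils, and matricellular proteins such as periostin and the CCN proteins act on cells from within the matrix. Most of these proteins are products of stromal cells in an ovarian tumour, although carcinoma cell lines make many of them too.

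Most of the large differences were decreases, among the matrix probes as among all probes kept. The study asked for 1.5-fold on both arrays of a comparison, and the stricter rule of 1.5-fold on all 4 arrays is used first here. By it, 11 matrix probes of 9 genes were lower in the knockdown clones (LUM, DCN, LAMB1, POSTN, CCN2, NID2, COL6A2, CCN1 and COL18A1), against 0.92% of all probes kept. By the same rule 3 probes of 2 genes were higher (HAPLN1 and COL3A1), against 0.23% of all probes. When the clones were averaged and tested against 0 with limma (n = 2 clones, Benjamini-Hochberg adjustment over 39151 probes), 3 matrix probes fell (2 of CCN1 and that of LAMB1), against 0.7% of all probes, and 1 rose (COL3A1), against 0.138%. The spread of ctrl does not enter this test, and when ctrl was given that of the knockdown clones no matrix probe passed (smallest limma adjusted p = 0.144). With any 1 array left out, which leaves the dye effect of its clone uncancelled, the number of matrix probes called changed.

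At an unadjusted limma p under 0.05 there were 38 of the 78 matrix probes and 5205 of all 39151. The median log2 ratio of the matrix probes was -0.039, and that of all probes kept was -0.0037. A ratio within 0.2 of 0 was found for 41 matrix probes (52.6%) and for 86.5% of all probes. Because the list was not chosen blind to these data, such shares only describe it. A probe at 1.5-fold on both arrays of at least 1 clone was found in 16 genes. The other 32 genes had none, although some of these had smaller ratios at an unadjusted limma p under 0.05. By the brightest probe of a gene, 2 of the 48 matrix genes were higher and 9 lower in sh-G1 by this fold rule. Of all 16882 named genes, 109 were higher and 278 lower. In sh-G2 the numbers were 4 and 12, against 124 and 343. In a bulk RNA sample, fewer cells that make a transcript and less transcript per cell cannot be told apart.

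**Figure D1:**
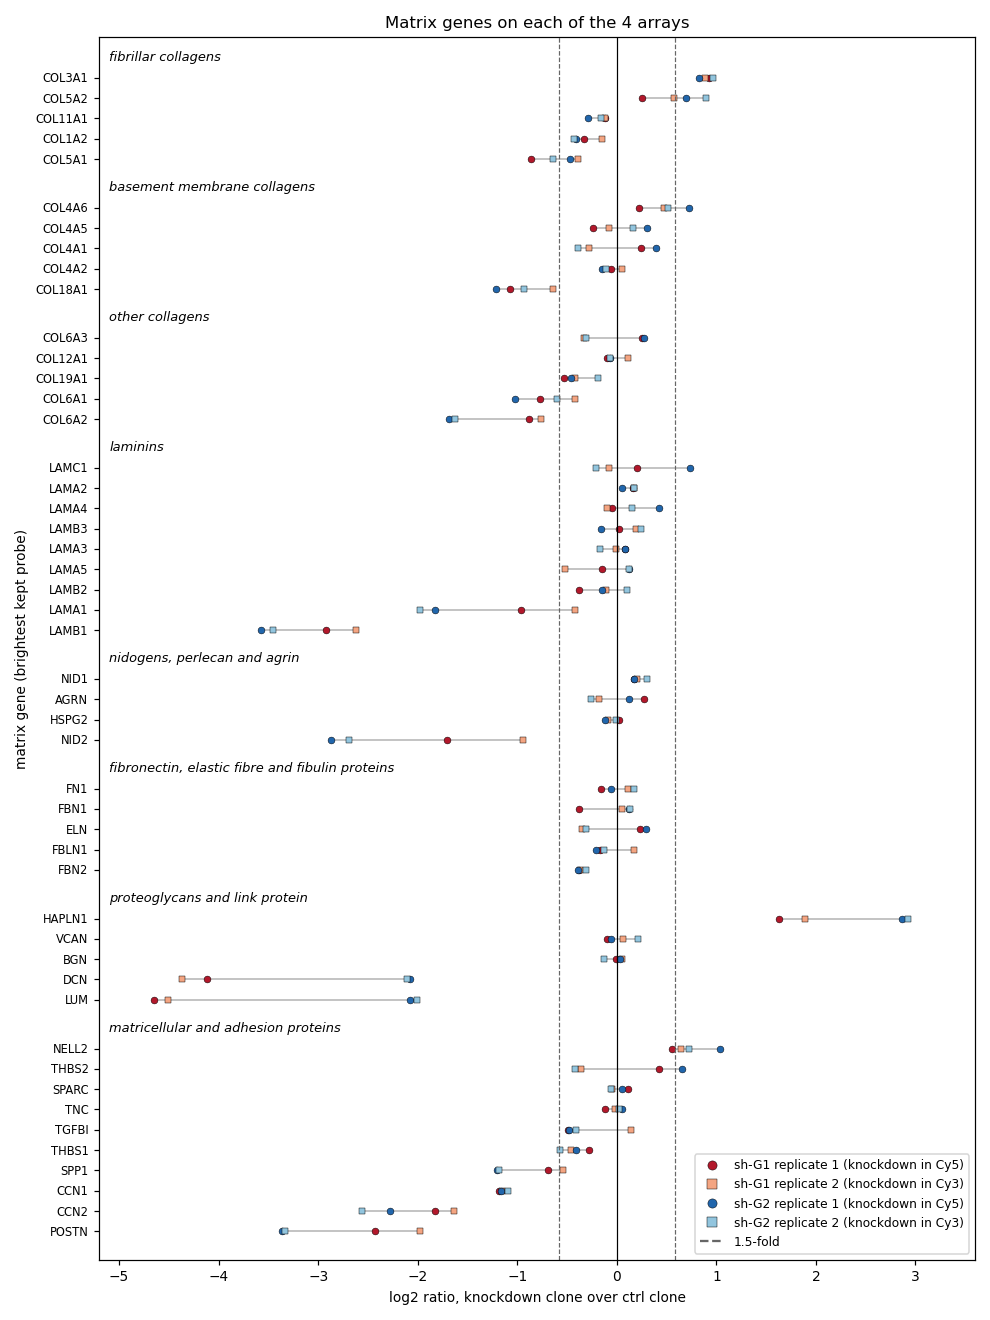
Log2 ratio of knockdown over ctrl for the brightest kept probe of each of the 48 matrix genes, grouped by role, with 1 symbol per array (red, sh-G1; blue, sh-G2; circles, knockdown in Cy5; squares, knockdown in Cy3) and dashed lines at 1.5-fold. LUM and DCN lie between -4.65 and -2.01 with the clones apart, HAPLN1 lies between 1.63 and 2.93, and most other genes lie between the dashed lines.

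The 250 bases before the start of 4 genes are printed for reference, since they are among the genes with the largest differences in either direction. They were taken from RefSeq promoters of GRCh38.p14, which held 42 promoters of 37 matrix genes (LUM, DCN and CCN1 were not among them), and run 5′ to 3′ on the strand of the gene. CCN2 lies at chr6:131951373-131951622, LAMB1 at chr7:108003162-108003411, POSTN at chr13:37598769-37599018 and HAPLN1 at chr5:83720856-83721105, all on the minus strand. Capitals mark GGAATG, the letters read by TEAD factors, or its reverse complement CATTCC. They also mark TATAAA, the letters of the TATA box, or its reverse complement TTTATA. Matches were marked wherever they lay in the window, so a match need not be a TATA box. A run that reads as both was counted on each strand.
CCN2: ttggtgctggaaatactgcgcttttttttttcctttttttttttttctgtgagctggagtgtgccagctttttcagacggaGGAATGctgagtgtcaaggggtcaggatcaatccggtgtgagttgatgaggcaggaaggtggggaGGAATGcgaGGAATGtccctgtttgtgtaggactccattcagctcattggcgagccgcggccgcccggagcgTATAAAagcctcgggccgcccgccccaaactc
LAMB1: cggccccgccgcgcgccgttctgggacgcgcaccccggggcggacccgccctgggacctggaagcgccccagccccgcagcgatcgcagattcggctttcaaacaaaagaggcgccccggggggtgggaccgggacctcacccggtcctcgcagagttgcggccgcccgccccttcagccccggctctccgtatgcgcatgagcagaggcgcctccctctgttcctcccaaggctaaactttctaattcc
POSTN: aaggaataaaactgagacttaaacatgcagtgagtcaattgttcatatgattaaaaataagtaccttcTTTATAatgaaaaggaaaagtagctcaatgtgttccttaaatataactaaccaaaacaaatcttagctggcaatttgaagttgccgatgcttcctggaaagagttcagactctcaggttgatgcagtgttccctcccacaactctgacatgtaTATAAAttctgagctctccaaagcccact
HAPLN1: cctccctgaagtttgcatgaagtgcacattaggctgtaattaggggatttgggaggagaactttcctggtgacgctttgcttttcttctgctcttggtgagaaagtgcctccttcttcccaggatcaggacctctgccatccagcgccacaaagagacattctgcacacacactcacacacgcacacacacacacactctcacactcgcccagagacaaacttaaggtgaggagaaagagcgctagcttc
GGAATG occurred 3 times before CCN2, and 3 or more such matches were found in 29 of 35116 promoters of the same length (0.0826%). That cutoff was set at the count of CCN2 itself, so this share only describes its promoter and says nothing about the list. At least 1 match stood in 4175 of these promoters (11.9%) and in 7 of the 42 matrix promoters (16.7%). TATAAA was found 1 time before CCN2 and 2 times before POSTN, where the match further from the start reads TTTATA. It was found in 5 of 42 matrix promoters (11.9%) and in 3763 of all (10.7%). Neither motif was found in the windows of LAMB1 and HAPLN1, which differ in base composition from that of POSTN (70.4% and 50.8% G and C against 36.4%).

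Among the fibrillar collagens, which form the banded fibrils of connective tissue, COL3A1 and COL5A2 were higher in both clones and COL5A1 was lower. COL3A1 (type III collagen) gave log2 ratios of 0.93 and 0.89 in sh-G1 and of 0.83 and 0.97 in sh-G2 with its brightest probe, a rise of 1.87-fold (0.90 ± 0.06, limma standard error, adjusted p = 0.035), which did not pass without sh-G2 replicate 2 (limma adjusted p = 0.081 for COL3A1 A_23_P142533). A second COL3A1 probe was also higher on every array (0.60, 0.94, 0.59 and 0.87, limma adjusted p = 0.057). The third read 0.76 and 1.02 in sh-G1 but -0.63 and 1.32 in sh-G2, so that a single array opposed the other 3.

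COL5A2, a chain of type V collagen, which is found within type I fibrils, was higher on all 4 arrays with each of its 3 probes. The brightest gave 0.25 and 0.57 in sh-G1 and 0.70 and 0.90 in sh-G2, and a second gave 0.46 and 0.77, then 0.87 and 1.02. Both passed 1.5-fold on both arrays of sh-G2 but not on both of sh-G1, and the difference of the clones did not pass limma (0.39 ± 0.12 and 0.33 ± 0.14, adjusted p = 0.556 and 0.705). COL5A1, the partner chain in type V collagen, lay the other way, with means of -0.59 and -0.48 for its 2 probes and all 8 ratios below 0 (limma adjusted p = 0.057 and 0.154). Those of COL1A2 were -0.33 and 0.01, and COL11A1 had -0.17.

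Of the basement membrane collagens, only COL18A1, whose C-terminal fragment is endostatin, passed 1.5-fold. Its log2 ratios were -1.08 and -0.64 in sh-G1 and -1.22 and -0.93 in sh-G2 (mean -0.96 ± 0.08, limma adjusted p = 0.057). The other COL18A1 probe had a mean of -0.15 and 1 array above 0.

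The genes of type IV collagen, the network former of basement membranes, showed small ratios. COL4A1 and COL4A2 encode the chains of its most common trimer and are transcribed away from each other out of a shared promoter. Between their RefSeq starts lie 126 bases (GRCh38.p14, chr13:110307158-110307283), given here on the plus strand because both genes of the pair were near 0.
COL4A1 and COL4A2: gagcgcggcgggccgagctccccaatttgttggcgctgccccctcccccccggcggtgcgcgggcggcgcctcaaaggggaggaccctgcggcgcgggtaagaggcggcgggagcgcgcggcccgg
The brightest COL4A1 probe read 0.24 and -0.28 in sh-G1 and 0.39 and -0.39 in sh-G2, so its sign followed the dye and not the clone. The other probe lay between 0.06 and 0.18, and COL4A2 gave -0.05, 0.05, -0.15 and -0.10. COL4A6 and COL4A5, the other head-to-head pair, have starts 379 or 1415 bases apart on chromosome X, depending on the COL4A6 start. COL4A6 was above 0 on every array (0.23, 0.48, 0.72 and 0.52), with a mean of 0.48 ± 0.09 that did not pass limma (adjusted p = 0.187). For COL4A5 the brightest probe read -0.24 and -0.08 in sh-G1 and 0.30 and 0.16 in sh-G2. These opposite signs did not amount to a difference between clones by limma (0.40 ± 0.15, adjusted p = 0.654), and the other COL4A5 probes had means of 0.02 and -0.04.

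Type VI collagen makes beaded microfilaments from 3 chains, and those of COL6A1 and COL6A2 were lower while that of COL6A3 was near 0. COL6A2 gave -0.89 and -0.76 in sh-G1 and -1.69 and -1.62 in sh-G2 with its brightest probe (mean -1.24 ± 0.23, limma adjusted p = 0.188). The other COL6A2 probe was lower as well but less so, from -0.56 to -0.07. COL6A1 gave -0.78 and -0.42, then -1.02 and -0.60 (mean -0.70, limma adjusted p = 0.096), so that it passed 1.5-fold on both arrays of sh-G2 and on 1 of sh-G1. Its second probe had a mean of -0.02. The COL6A3 probes had means of -0.03 and 0.08.

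COL12A1, a collagen on the surface of fibrils, had means of -0.03 and -0.14. The COL19A1 probe was not well above background in the knockdown channel of any array, whereas ctrl was on all 4, so its measured mean of -0.40 (6.21 against 6.61 in log2 normalised intensity) gives only a bound, at least 1.20-fold lower (limma adjusted p = 0.128).

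LAMB1, the beta chain of the laminins of most tissues, had the largest change of those past the limma test. Its log2 ratios were -2.92 and -2.62 in sh-G1 and -3.57 and -3.46 in sh-G2, which corresponds to 6.82-fold and 11.4-fold lower levels. Every array was thus more than 6-fold lower, and the mean of -3.14 ± 0.21 passed limma (adjusted p = 0.038). The other beta chains did not follow. LAMB2 had a mean of -0.13, and LAMB3 one of 0.07.

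LAMA1, the alpha chain of laminin-111, the laminin of early embryonic basement membranes, had 4 probes that disagreed. The brightest gave -0.96 and -0.42 in sh-G1 and -1.83 and -1.97 in sh-G2, and another gave 0.02 and -0.62, then -0.84 and -1.08. The other two had means of -0.10 and -0.21. For both of the former probes the arrays of sh-G2 passed 1.5-fold and lay below those of sh-G1, with differences of -1.21 ± 0.20 and -0.66 ± 0.13 that did not pass limma (adjusted p = 0.195 and 0.247). LAMC1, the gamma chain shared by most laminins, read 0.20 and -0.07 in sh-G1 and 0.73 and -0.21 in sh-G2. LAMA2, LAMA3, LAMA4 and LAMA5 had means from -0.11 to 0.14, and the third LAMA3 probe was too dim to be kept. In LAMA4 and LAMA5 the signs were opposite between the clones on all arrays, with differences of 0.37 and 0.46 that did not pass limma (adjusted p = 0.453 and 0.429).

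The nidogens bridge laminin and type IV collagen, and their ratios lay in opposite directions. NID2 was lower on every array, with -1.71 and -0.94 in sh-G1 and -2.87 and -2.69 in sh-G2 (mean -2.05 ± 0.39, limma adjusted p = 0.201). NID1 read from 0.17 to 0.30 (mean 0.21, limma adjusted p = 0.272). The proteoglycans HSPG2 (perlecan) and AGRN (agrin) had means from -0.12 to 0.00.

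Fibronectin, fibrillins, elastin and fibulin-1 had no probe at 1.5-fold on both arrays of a clone. FBN2, a microfibril protein, was below 0 by a like amount on each array (-0.38, -0.37, -0.39 and -0.31; limma adjusted p = 0.163), whereas FBN1 had a mean of -0.02 and FBLN1 means of -0.08, -0.21 and -0.03. For FN1 the probes had means of 0.02, -0.04 and -0.40, and the last of these differed little between clone means (limma adjusted p = 0.079 for its mean). Its arrays lay further apart, with -0.74 and -0.01 in sh-G1 and -0.53 and -0.32 in sh-G2. The 4 ELN probes had means between -0.09 and -0.03, and 3 of them, as with the brightest COL4A1 probe, were above 0 with the knockdown in Cy5 and below 0 with it in Cy3. Such a sign that follows the dye was found in 16 of 78 matrix probes (20.5%) and in 40.5% of all probes.

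LUM and DCN encode lumican and decorin, small leucine-rich proteoglycans that bind collagen fibrils, and they had the lowest mean ratios of all matrix genes, although LAMB1, POSTN, NID2 and CCN2 were lower than both in sh-G2 alone. Lumican gave log2 ratios of -4.65 and -4.51 in sh-G1 and of -2.08 and -2.01 in sh-G2, and decorin -4.12 and -4.37, then -2.07 and -2.11. Both were thus lower on each array, but 23.9-fold (LUM) and 18.9-fold (DCN) lower in sh-G1 against 4.12-fold and 4.26-fold in sh-G2. The arrays of the clones did not overlap, and the dye swaps of a clone lay close to each other.

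This was the only difference between clones among the matrix probes that passed the test (limma on 4 arrays with terms for clone and dye, against 0.123% of all probes). It came to 2.53 ± 0.12 for LUM (adjusted p = 0.018) and 2.15 ± 0.14 for DCN (adjusted p = 0.030) in log2 units, sh-G2 minus sh-G1. The spread in this test is that between arrays, which may be technical. Their means over the clones, -3.31 ± 0.68 and -3.17 ± 0.58, did not pass limma (adjusted p = 0.221 and 0.187).

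HAPLN1, the link protein that fastens proteoglycans to hyaluronan, had the highest ratios. They were 1.63 and 1.89 in sh-G1 and 2.86 and 2.93 in sh-G2, or 3.39-fold and 7.43-fold (mean 2.33 ± 0.31, limma adjusted p = 0.116). The clones did not overlap, with a difference of 1.13 ± 0.13 that did not pass limma (adjusted p = 0.106). VCAN, a hyaluronan-binding proteoglycan that HAPLN1 can link, had a mean of 0.03, and BGN (biglycan), a close relative of decorin, one of -0.01.

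**Figure D2:**
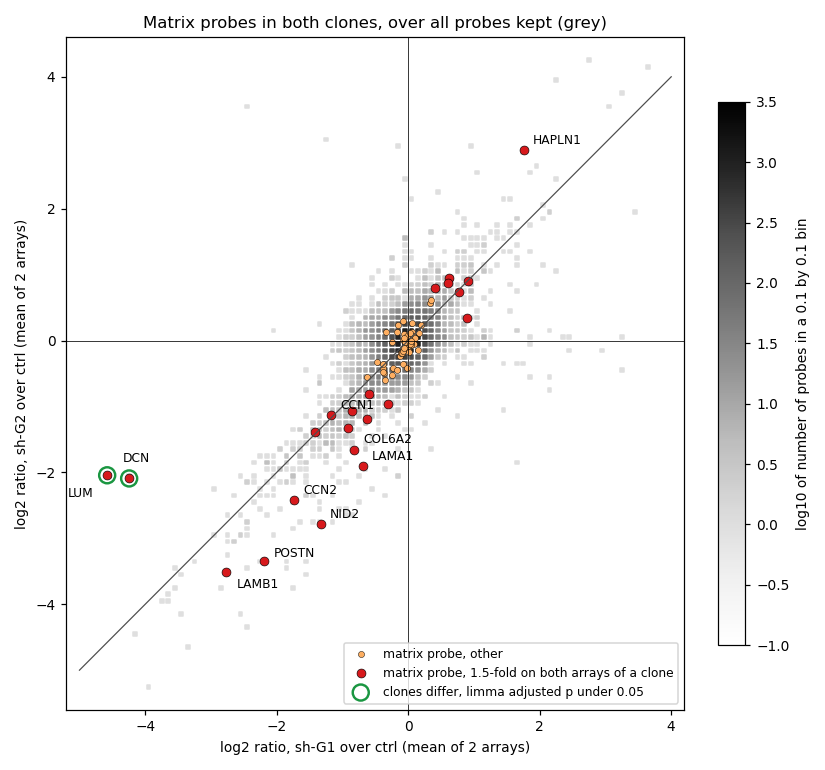
Log2 ratio over ctrl in sh-G1 (horizontal axis) and sh-G2 (vertical axis), each the mean of 2 arrays, for the 78 matrix probes (coloured) over the density of all 39151 probes kept (grey), with the line of equal ratios. LUM and DCN (ringed) lie far to the left of that line, at -4.58 and -4.24 in sh-G1, while LAMB1, POSTN, NID2, CCN2 and HAPLN1 lie on the side of a larger difference in sh-G2.

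Of the matricellular and adhesion proteins, which signal to cells through integrins and growth factors, 5 probes of 3 genes were 1.5-fold lower on every array. POSTN (periostin) gave -2.43 and -1.97 in sh-G1 and -3.36 and -3.33 in sh-G2 (mean -2.77 ± 0.31, limma adjusted p = 0.089). CCN2 (connective tissue growth factor) gave -1.83 and -1.64, then -2.28 and -2.56 (mean -2.07 ± 0.19, limma adjusted p = 0.064).

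CCN1 (CYR61), an integrin ligand of the same family, was about equally lower in both clones. Its brightest probe gave -1.19 and -1.15 in sh-G1 and -1.16 and -1.09 in sh-G2, a fall of 2.22-fold (-1.15 ± 0.06, limma adjusted p = 0.029). The second probe fell by 2.65-fold (-1.41 ± 0.06, limma adjusted p = 0.021), with a larger difference with the knockdown in Cy5 (-1.64 in both clones) than in Cy3 (-1.21 and -1.15). The third, with -0.77, -1.05, -1.79 and -0.85, was lower on every array but did not pass limma (adjusted p = 0.087).

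SPP1 (osteopontin) passed 1.5-fold on both arrays of sh-G2 and on 1 of sh-G1, with -0.69 and -0.55 in sh-G1 and -1.20 and -1.18 in sh-G2, and the clones did not differ by limma (-0.57 ± 0.09, adjusted p = 0.179). NELL2, a secreted protein with thrombospondin-like domains, was the counterpart on the higher side (0.55 and 0.65, then 1.04 and 0.72; difference 0.28 ± 0.15, limma adjusted p = 0.809). THBS1 (thrombospondin-1) was below 0 on all 8 readings of its 2 probes, with means of -0.43 and -0.42 (limma adjusted p = 0.136 and 0.087). TGFBI had a mean of -0.31, THBS2 of 0.07, SPARC of 0.02 and TNC of -0.01.

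Counted by clone, 4 matrix probes were 1.5-fold higher on both arrays of sh-G1 (0.442% of all probes) and 11 were lower (1.24%). For sh-G2 the numbers were 6 higher (0.552%) and 15 lower (1.42%). Both counts rest on the same ctrl clone.

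**Figure D3:**
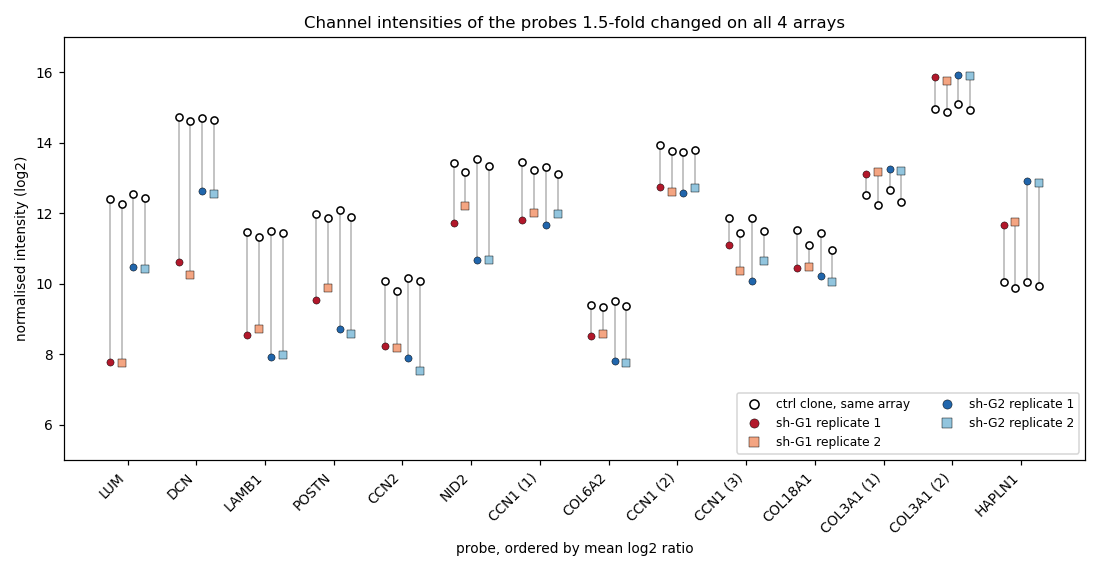
Normalised log2 intensity of the 14 matrix probes at 1.5-fold on all 4 arrays, for the ctrl channel (open circles) and the knockdown channel (filled symbols, red for sh-G1 and blue for sh-G2) of the same array, joined by a line. The ctrl readings of a probe lie close together, and for LUM and DCN the sh-G1 symbols lie well below those of sh-G2.

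The signals behind these ratios were well above background in both channels on every array. The mean intensity (log2) of LUM went from 12.41 in ctrl to 9.10 in the knockdown clones, and that of LAMB1 from 11.44 to 8.30. DCN went from 14.68 to 11.52, and HAPLN1 from 9.98 to 12.30. Levels are not comparable between probes.

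Of the 19 genes with more than 1 kept probe, 15 had probe means within 0.42 of each other. The 4 others were LAMA1 (range 1.20), COL6A2 (0.85), COL18A1 (0.81) and COL6A1 (0.69), and in each of them the brightest probe had the lowest ratio. When all probes of a gene were averaged, 7 genes were lower and 1 higher by 1.5-fold on all arrays, against 9 and 2 with any probe. With any probe, 244 of all 16882 named genes were lower by this rule and 66 higher. A gene with 1 probe, such as LUM, DCN, LAMB1, NID2, POSTN, CCN2 or HAPLN1, had no second reading of this kind. For LAMB1 and POSTN the paper also reports lower levels by qPCR.

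**Figure D4:**
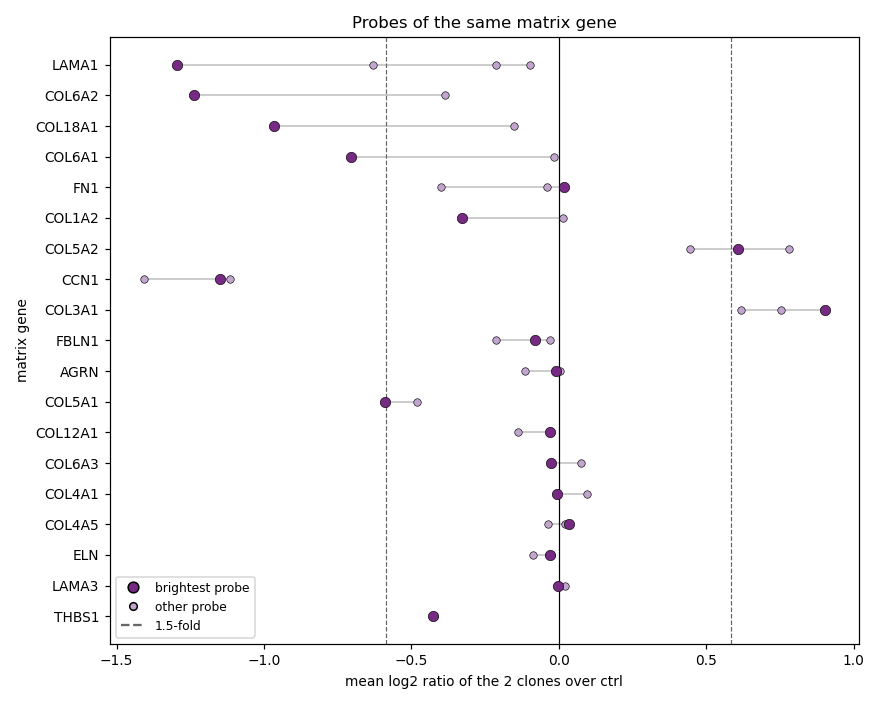
Mean log2 ratio of the 2 clones over ctrl for each kept probe of the 19 matrix genes with more than 1, ordered by the range between probes (dark symbol, brightest probe; dashed lines, 1.5-fold). LAMA1, COL6A2, COL18A1 and COL6A1 have probes that lie apart, whereas CCN1, COL5A2, COL3A1 and THBS1 have probes on the same side of 0.

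Several of the matrix genes are neighbours in the genome, with no protein-coding gene between them in the RefSeq gene order. LUM and DCN on chromosome 12 were both lower, and COL3A1 and COL5A2 on chromosome 2 were both higher. COL6A1 and COL6A2 on chromosome 21 were both lower, with COL18A1 beyond SLC19A1 and PCBP3, whose means were 0.11 and 0.04. HAPLN1 and VCAN on chromosome 5 did not go together, with means of 2.33 and 0.03. KERA (keratocan), a further leucine-rich proteoglycan on the other side of LUM, fell too, with -1.15 and -1.56 in sh-G1 and -1.15 and -1.63 in sh-G2 (mean -1.37 ± 0.05, limma adjusted p = 0.019). Unlike in LUM and DCN, the clones were alike in KERA (difference -0.04, limma adjusted p = 0.984), and EPYC, the next gene of that cluster, was too dim to be kept.

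**Figure D5:**
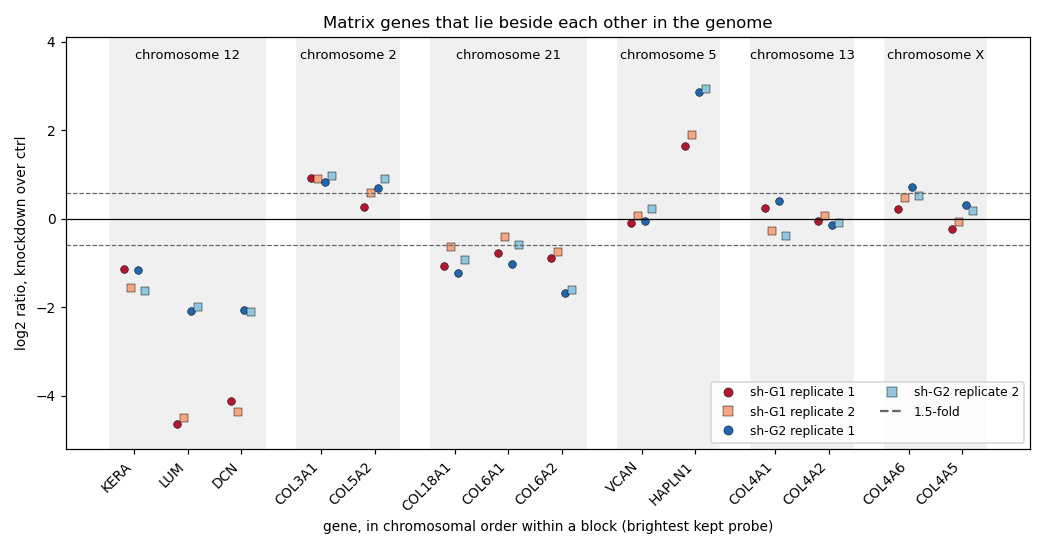
Log2 ratio on each array (vertical axis; red, sh-G1; blue, sh-G2) of the brightest kept probe of matrix genes that lie near each other, in chromosomal order and with KERA added (SLC19A1 and PCBP3 lie between COL18A1 and COL6A1 and are not drawn). KERA, LUM and DCN are below the dashed 1.5-fold line on each array, HAPLN1 lies above its neighbour VCAN, and COL4A1 and COL4A2 lie around 0.

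Other matrix genes outside the list were read the same way, and those called by limma or by 1.5-fold on all 4 arrays are named. Over all probes, limma called 0.7% lower and 0.138% higher. By 1.5-fold on all 4 arrays, 0.92% were lower and 0.23% higher. Of 27 collagen-processing enzymes (38 probes), LOXL1, a lysyl oxidase of elastic fibres, and COLGALT2, which glycosylates collagen, fell (means -1.34 and -1.41, both with limma adjusted p = 0.02), and TLL1, a procollagen protease, was higher on every array (1.06, limma adjusted p = 0.16). The median of this list was 0.02. Among 22 other collagen and laminin genes (29 probes), COL9A1 fell (-0.78, limma adjusted p = 0.03), and the median was -0.04.

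In 15 microfibril and elastic fibre genes, MFAP2 was lower on every array (-1.24, limma adjusted p = 0.12), with a list median of -0.08. KERA was the only one of 8 other leucine-rich proteoglycans with a call, and HAPLN3 the only one of 10 hyaluronan matrix genes (-0.79, limma adjusted p = 0.03), at list medians of 0.00 and -0.02. SPOCK2, a testican proteoglycan, fell with its brighter probe (-2.06, limma adjusted p = 0.02) and was lower on every array with the other (-0.95), alone among 21 other matricellular genes with a median of -0.02. The 3 other CCN genes had no call.

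CCN1 and CCN2 are well-known targets of YAP and the TEAD factors, so 20 further target genes (34 probes) were counted. ANKRD1 fell (-0.97, limma adjusted p = 0.03) and TGFB2 was lower on every array (-2.10, limma adjusted p = 0.16). Both were 1.5-fold lower on all 4 arrays, 2 of the 34 probes, against 0.92% of all probes. AMOTL2 missed both rules (-0.91, limma adjusted p = 0.055). None was higher by either rule, and the list median was 0.00. In sh-G2 alone, however, 2 MYOF probes were 1.5-fold higher on both arrays (0.75 and 0.85, then 1.07 and 0.60), against 0.552% of all probes. By that rule 3 probes of the list were lower in sh-G1 (1.24% of all probes) and 3 in sh-G2 (1.42%). Below 0 on every array were 7 probes (20.6%, against 9.04% of all probes), and above 0 on every array 2 (5.88%, against 6.21%).

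Cell type markers were read alongside. All 9 ovarian adenocarcinoma markers were well above background on each array, but so were 3 of 4 leukocyte and endothelial markers, so detection on this array does not identify a cell type. The keratins KRT18 (3 probes, means -1.96, -2.50 and -2.32) and KRT8 (-1.03 with its brighter probe) fell, while the means of PAX8, WT1, KRT7, KRT19, CDH1 and MUC16 lay between -0.05 and 0.04 and that of EPCAM was -0.33. The summed signal of the list was 8922 to 10795 in the knockdown channels and 23457 to 25411 in ctrl. Bright probes weigh most in this sum, so it does not stand for each marker.

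Fibroblasts are the usual source of LUM, DCN, POSTN and COL3A1. Of 7 fibroblast marker probes 1 fell, PDGFRA (-1.16, called by limma, against 0.7% of all probes). PDGFRB had -0.78 and THY1 -0.55, and all 3 were below 0 on every array, whereas FAP, PDPN and ACTA2 lay between -0.05 and 0.20. These 3 probes were 1.5-fold lower on both arrays of sh-G2 (1.42% of all probes), and 1 of them on both of sh-G1 (1.24%). No marker probe of the 7 was 1.5-fold higher on both arrays of a clone. The summed signal of these markers was 29404 to 38440 in the knockdown channels and 32559 to 34799 in ctrl, a sum in which bright probes weigh most. The leukocyte and endothelial markers summed to 1336 to 1528 and 1320 to 1497. The part of these markers in the matrix differences was not tested.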

How the data were processed

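A set of 4 two-colour Agilent whole-genome arrays of cell line RNA were used, 2 per knockdown clone with exchanged dyes. The authors scanned them with Agilent Feature Extraction (version 8.5.1.1 per the submitters' processing notes, 10.5.1.1 per the file headers) and deposited median spot intensities, local background intensities and a log10 ratio of Cy5 over Cy3. The deposited series matrix holds the same log10 ratio for 3 arrays; 1 column of per-sample values, the error of the ratio for the other array, was not used.

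Intensities were background-corrected (normexp, offset 50) and loess-normalised within arrays with limma 3.58.1 in R 4.3.3, with control and outlier-marked spots at weight 0. The sign of each ratio was set to knockdown over ctrl, and spots of a probe were averaged. A probe was kept if, on each array, 1 channel or both cleared the background (39151 of 40905 probes). The arrays of a clone were averaged and the 2 clones tested against 0 (lmFit, eBayes with trend, Benjamini-Hochberg, threshold 0.05). Clones were compared in a fit of the 4 arrays with a dye term. The scripts were tested on simulated data. Probes were named through a RefSeq table of GRCh38.p14 (25398 of 41000), and promoters cover 250 bases before the start.

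Members, gene lists and tests were chosen with earlier results of these data known. Values on every array are given for probes at 1.5-fold on all arrays or on both arrays of a clone, for those called by limma or differing between clones, for the head-to-head type IV collagen pairs and for genes whose probes disagree; from other lists, called genes are named. The number of arrays limits the precision, and whether replicates are technical is not stated in the sources used here. Alternatives covered background correction, normalisation, filters, probe choice, arrays or clones left out, the spread of ctrl, the unit of replication, a dye term, the prior variance and the fold threshold.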

Additional observations from a re-analysis of the deposited data

Results flagged for a closer look

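The difference between the clones in lumican and decorin passed the limma test of that difference, in which each clone is a single clone and the spread is that between dye-swapped arrays, which may be technical. LUM differed by 2.53 and DCN by 2.15 on the log2 scale, sh-G2 minus sh-G1 (limma, adjusted p = 0.018 and 0.030), with both arrays of sh-G1 below both arrays of sh-G2 in each gene. Both genes were lower than in ctrl in each clone.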

How the results depend on the processing

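All 22 matrix probes at 1.5-fold on both arrays of a clone kept their sign under every alternative that gives a value per probe, a clone left out included. Of the other 56 probes 31 changed sign under at least 1. The 22 were picked for their distance from 0 on these same arrays, so this contrast largely restates how they were picked. The clone differences of LUM and DCN passed under each alternative run for them; they could not be fitted with an array left out or from the series matrix, since no residual degrees of freedom remain. The limma calls depended on the setting. The counts that follow, by limma or by fold, cover only the matrix list. The share called over the whole array under each setting is not given here. These counts therefore do not show whether the list differed from the rest of the array. Given the same spread in ctrl, 0 matrix probes were higher and 0 lower. The counts were 2 higher and 6 lower with the scanner software's ratios, 7 and 20 with the series matrix, 9 and 24 with clone as a random block and 5 and 13 with a dye term, where arrays and not clones set the spread. They were 0 higher with the mean over all probes of a gene and 2 higher without a trend, where LAMB1 missed the threshold (adjusted p = 0.051). With an array left out there were 1 to 8 higher and 6 to 20 lower, and COL3A1 was lost without sh-G2 replicate 2 (limma adjusted p = 0.081). By the rule of 1.5-fold on all arrays, 1 was higher and 7 lower with the mean over probes of a gene, 1 and 7 at 2-fold, 7 higher with the mean of the clones in place of every array, and 6 higher without clone sh-G1; with an array left out, 3 to 5 were higher and 11 to 14 lower. The median log2 ratio of the matrix probes was -0.0518 with an offset of 0, -0.0498 without background correction, -0.0594 with median centring, -0.0433 with the software's ratios, -0.109 with the series matrix, -0.0366 without a filter, -0.0344 with both channels required, -0.0742 per gene, -0.0639 without clone sh-G1, -0.0629 without clone sh-G2 and -0.111 to -0.0611 with an array left out. No paired analysis was possible because the labels number no replicates; each ratio already sets knockdown against ctrl on 1 array, and the dye term matches arrays by orientation. Dim signals limit COL19A1 and GALNT3 to a bound or no reading.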
